A study of Mus musculus with 8 samples.

Results

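The 55 genes described here encode the machinery of mitosis and of the G2 phase before it, from the cyclins that start division to the motors that part the chromosomes. They were taken by symbol from a fixed list and looked up in the deposited count table. All 55 were found among its 24108 named genes, and all 55 passed the filter on low counts that left 13989 genes for testing.

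The RNA came from CD4 T cells of the mesenteric lymph nodes, sorted from mice of the genotype Foxp3DTR-GFP/Thy1.1CD4CreER/wtR26lsl-tdTomato/wt. Foxp3, whose product is the defining transcription factor of regulatory T (Treg) cells, thus carried 2 reporter alleles, 1 with the diphtheria toxin receptor and GFP and 1 with Thy1.1. Tamoxifen activates the CD4-driven Cre recombinase, which turns on red tdTomato at the R26 locus. All mice were bred and weaned on AVNM (an abbreviation left unexplained) and a diet of defined amino acids, and were given tamoxifen together with diphtheria toxin for about 3 weeks. They were then moved to chow and colonized with SPF fecal microbiota, and cells were sorted 12 days later. The 4 populations, with 2 libraries each, were unmarked (tdTomato-negative) Thy1.1 cells, marked (tdTomato-positive) Thy1.1 cells, unmarked GFP cells and marked GFP cells. Per the design text tamoxifen marks cells outside the thymus that lack Foxp3 at the time, so a marked cell that later expresses Foxp3 is a candidate peripherally induced Treg cell. The toxin receptor sits on the GFP allele only, and what the toxin removed was not measured here. The labels state neither age nor sex, nor whether a population was taken from separate or pooled animals.

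A dividing cell builds up cyclins A and B, which switch on the kinase CDK1 and drive it into mitosis. The spindle then captures each chromosome at its kinetochore, a checkpoint holds the cell until every chromosome is attached, and the anaphase-promoting complex (APC/C) with its activator CDC20 releases the sister chromatids. Most of these genes are transcribed only late in the cycle and are nearly silent in resting lymphocytes. Resting T cells start this programme within days of meeting antigen, and Treg cells in gut-draining lymph nodes divide as well.

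Many promoters of this kind are known to hold a short element near the start of transcription, the cell cycle genes homology region, which is bound by the MuvB complex, together with CCAAT boxes, which are bound by NF-Y. Shown first are the promoters of 6 members that hold both elements and were higher in marked GFP than in marked Thy1.1 cells. That of Mad2l1, which was also higher and holds neither, follows. A link between these elements and the levels was not tested. The promoters are written 5′ to 3′ on the gene's own strand, from 120 bases before the annotated start to at most 30 bases after it. Capitals mark TTTGAA and TTCGAA (the homology region, read on both strands, so that TTTGAA also appears as TTCAAA) and CCAAT (also as ATTGG). Sequences are from RefSeq, build GRCm38.p6, all on the minus strand except that of Mad2l1. The GENCODE gene model of Mad2l1 starts at chr6:66535390, beyond the end of its window. That it holds neither element is thus known for the RefSeq start only. The windows are chr9:70421525-70421674 for Ccnb2, chr9:61946770-61946919 for Kif23, chr10:69352909-69353032 for Cdk1, chr11:99024160-99024309 for Top2a, chr15:99651627-99651776 for Racgap1, chr4:118437323-118437463 for Cdc20 and chr6:66535101-66535250 for Mad2l1.
Ccnb2: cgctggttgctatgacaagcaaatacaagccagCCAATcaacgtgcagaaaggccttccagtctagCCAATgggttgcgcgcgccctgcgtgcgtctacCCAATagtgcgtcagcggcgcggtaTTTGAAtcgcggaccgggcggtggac
Kif23: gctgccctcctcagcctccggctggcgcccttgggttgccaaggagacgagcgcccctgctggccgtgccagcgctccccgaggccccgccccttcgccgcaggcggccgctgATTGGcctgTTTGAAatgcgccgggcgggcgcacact
Cdk1: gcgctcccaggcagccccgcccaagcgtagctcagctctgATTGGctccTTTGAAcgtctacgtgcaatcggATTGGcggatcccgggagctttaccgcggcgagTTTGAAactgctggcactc
Top2a: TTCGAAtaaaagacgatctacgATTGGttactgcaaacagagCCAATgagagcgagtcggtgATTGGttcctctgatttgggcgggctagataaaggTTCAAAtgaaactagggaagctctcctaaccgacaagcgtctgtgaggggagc
Racgap1: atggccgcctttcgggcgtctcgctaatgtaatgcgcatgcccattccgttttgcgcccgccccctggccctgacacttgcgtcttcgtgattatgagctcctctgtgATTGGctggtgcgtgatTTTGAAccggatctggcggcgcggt
Cdc20: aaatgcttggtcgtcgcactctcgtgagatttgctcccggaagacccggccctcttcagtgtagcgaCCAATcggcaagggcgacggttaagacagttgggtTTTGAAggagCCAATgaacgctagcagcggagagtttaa
Mad2l1: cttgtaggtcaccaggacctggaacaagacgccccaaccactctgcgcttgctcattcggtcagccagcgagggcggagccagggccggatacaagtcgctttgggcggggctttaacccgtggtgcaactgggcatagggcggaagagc

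In Ccnb2 and Kif23 the homology region began at bases 5 and 3 after the RefSeq start, in Racgap1 at base 6 after it. In Cdc20 and Cdk1 it began at 18 and 15 bases before that start. The GENCODE models of some members, among them Kif23, Cdk1, Kif2c, Cdca8 and Kif4, start elsewhere. All positions thus hold for the RefSeq starts only. RefSeq windows of 250 bases before to 50 after the start were on hand for 44 of the 55 members, 47 windows in all. TTTGAA or TTCGAA occurred in 37 of these 47 windows (78.7%), against 19.2% of all 32851 windows of the same length. Within 50 bases of the start it occurred in 70.2% of member windows and in 5.31% of all windows. CCAAT was present in 74.5% and 37.4%, and at 2 or more places in 48.9% and 11.7%. CCAAT together with TTTGAA or TTCGAA was present in 70.2% and 7.52%. Of the 34 members with TTTGAA or TTCGAA in a window, 27 were higher in marked GFP than in marked Thy1.1 cells by the test described below, and so were 8 of the 10 members without. Birc5, Nuf2, Ncaph and Nusap1 were among these 8, and Pttg1, which had no match for either element, was lower in marked GFP cells. These are matches of letters in a window, given as a description, and the window of Mad2l1, counted among the 10 without, ends before its GENCODE start.

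**Figure D1:**
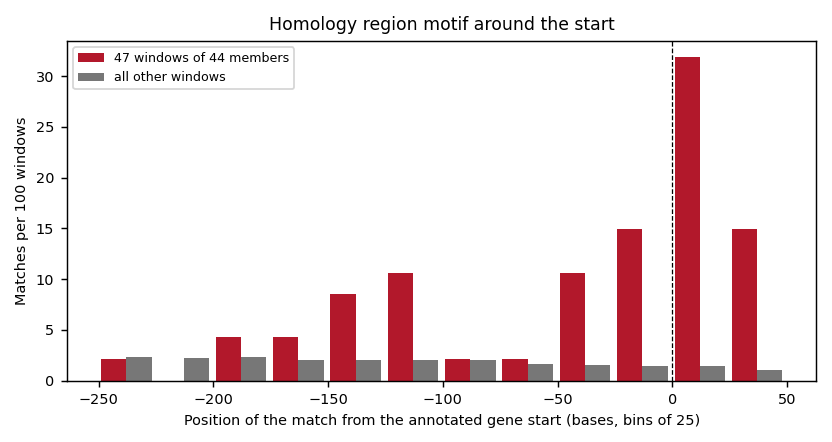
Position of each match to the homology region (TTTGAA or TTCGAA, both strands), in bins of 25 bases from the RefSeq gene start. Bars show matches per 100 windows for the 47 windows of the members (red) and for all other windows (grey). The member windows peak just after the start, at 31.9 matches per 100 windows against 1.39 elsewhere.

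The libraries held 38085686 to 47908198 counts, and the upper limit for a gene without reads, 3 counts, was 0.0614 to 0.0806 CPM (counts scaled to a common library size, with TMM factors). All 8 libraries expressed the T cell genes Cd3e (965 to 1374 CPM) and Cd4 (301 to 507 CPM) and the Treg genes Foxp3 (126 to 201 CPM) and Il2ra (631 to 1309 CPM). They were not all even. In marked GFP against marked Thy1.1 cells, Foxp3 was at -0.48 ± 0.12 and Cd4 at 0.56 ± 0.09 on the log2 scale, both called by the test described below (edgeR adjusted p = 0.0314 and 0.00742). The 2 libraries of each population differed well beyond sampling noise, with a chi-square of 37.7 to 80.2 for each degree of freedom. Marker sets of other cells were uneven. The 12 myeloid and dendritic genes summed to 303 CPM in unmarked GFP library 3 and to 46.9 to 97.1 CPM in the others. The largest terms in unmarked GFP library 3 were Cd74 (173.7 CPM), Siglech (36.8 CPM) and H2-Aa (34 CPM), while Lyz2 and Itgam were not highest there. H2-Ab1 was at 0 in all 8 libraries, also in the one where H2-Aa was high. The 5 erythroid genes in the table summed to 47.9 CPM in marked GFP library 3, mainly Hba-a2 and Hbb-bs, to 6.12 CPM in marked GFP library 4 and to 1.84 to 3.72 CPM elsewhere. The 6 plasma cell genes in the table summed to 196 to 237 CPM in Thy1.1 and 335 to 473 CPM in GFP libraries, nearly all from Xbp1 and Irf4. Jchain was at most at 0.812 CPM, Mzb1 at 0.238 CPM, Sdc1 at 1.56 CPM and Derl3 at 1.72 CPM, the last 2 with their highest values in unmarked GFP library 4. The 6 B cell genes in the table summed to 38.9 to 48.3 CPM in Thy1.1 and 17.3 to 22.5 CPM in GFP libraries, and the 6 CD8 and NK cell genes to 12.8 to 41.0 CPM, with Ncr1 at 1 count in all. The part of these cells in the results below was not tested, beyond the counts given without single libraries. In bulk RNA, fewer dividing cells and less mitotic RNA per cell cannot be told apart.

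As a group the members were lowest in both Thy1.1 populations, intermediate in unmarked GFP cells and highest in marked GFP cells. Over all 55 members the sum was 1657 and 1714 CPM in unmarked Thy1.1 and 1584 and 1673 CPM in marked Thy1.1 cells. It was 2047 and 2029 CPM in unmarked GFP and 2764 and 2150 CPM in marked GFP cells. Smc4, Bub3 and Pttg1 are dealt with separately below. They are the 2 members that fell between the marked populations and the 1 with the smallest difference. Without them the members summed to 499 and 464 CPM in unmarked Thy1.1 cells and to 473 and 431 CPM in marked Thy1.1 cells. The sum was 1021 and 819 CPM in unmarked GFP cells and 2092 and 1543 CPM in marked GFP cells. For 40 of 55 members all 4 GFP libraries lay above all 4 Thy1.1 libraries, which held for 7.03% of all genes tested. For 32 members both marked GFP libraries also lay above both unmarked GFP libraries, against 4.63% of genes tested.

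**Figure D2:**
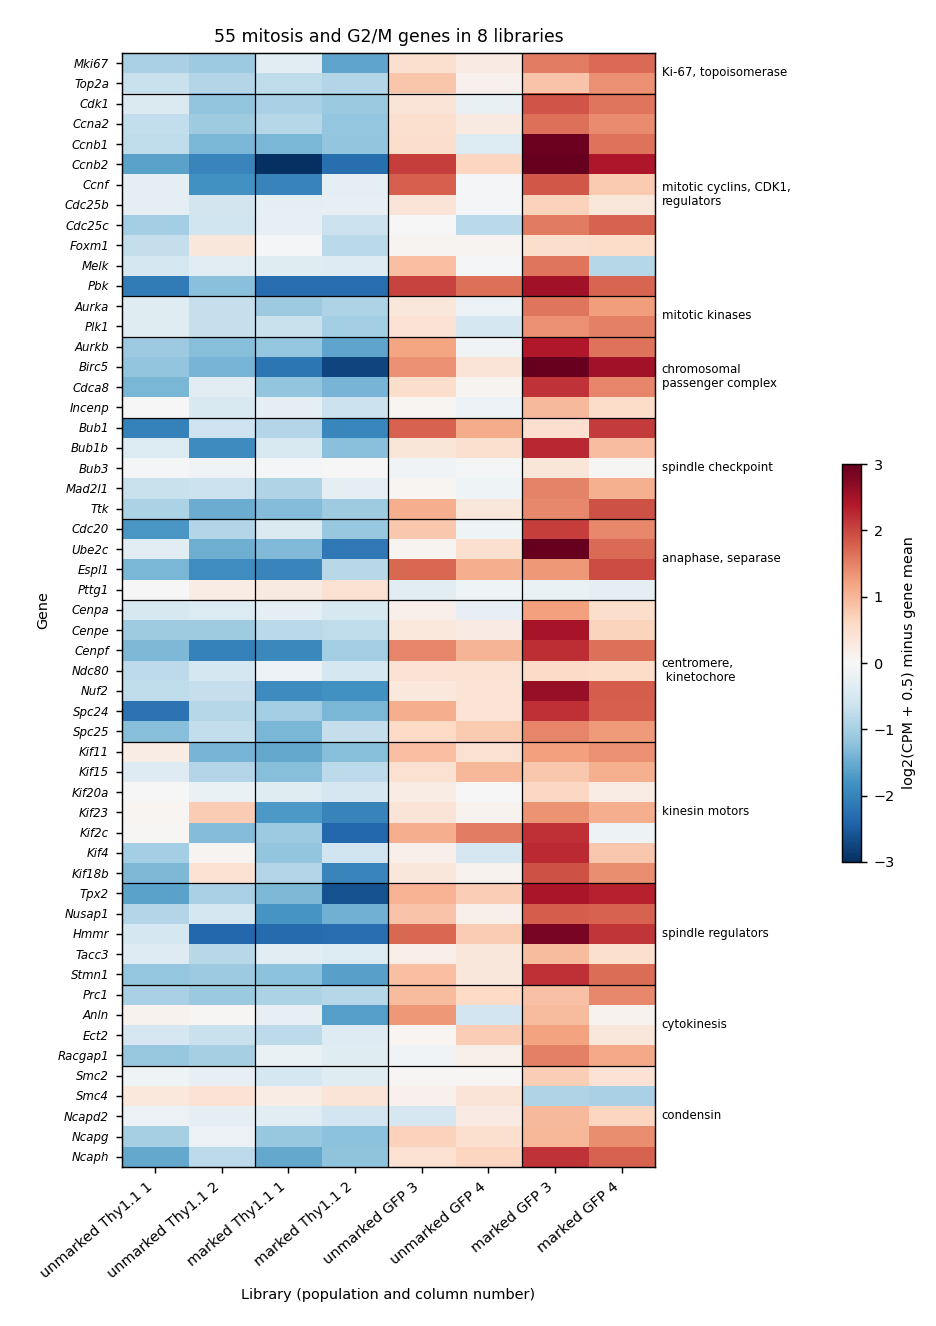
Level of each of the 55 members (rows, grouped by role) in each of the 8 libraries (columns) as log2(CPM + 0.5) minus the gene's mean over libraries, where red is above and blue below that mean. Most rows run from blue in the Thy1.1 libraries through pale red in unmarked GFP to deep red in marked GFP libraries, and Smc4 and Pttg1 run the other way.

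In the test of marked GFP against marked Thy1.1 cells, 43 of 55 members rose, 2 fell and 10 did not pass (edgeR quasi-likelihood test, Benjamini-Hochberg adjusted p under 0.05 over all 13989 genes). Of all genes tested, 8.01% rose and 6.82% fell, 14.8% in all. The median log2 fold change was 2.61 over the members and -0.01 over all genes tested, and it stayed at 2.61 with the 2 members that were near 0 in marked Thy1.1 cells set to their counted ratio or bound. Both marked GFP libraries lay above both marked Thy1.1 libraries for 52 members and below them for 2, against 29.5% of genes tested in each direction. Without marked Thy1.1 library 1 or library 2, the number of members past the threshold fell from 45 to 20 and 22. Those counts come from a fit in which the remaining library is taken to vary like the other populations. Without marked GFP library 3 it was 32, and without marked GFP library 4 it was 45.

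The 2 general division markers rose. Mki67 encodes Ki-67, which coats mitotic chromosomes and is absent from resting cells. It lay at 8.15 and 7.52 CPM in unmarked Thy1.1, 13.2 and 5.21 CPM in marked Thy1.1, 23.2 and 19.6 CPM in unmarked GFP and 48.4 and 54.4 CPM in marked GFP cells. Both marked GFP libraries were above all others and both unmarked GFP libraries above all Thy1.1 libraries, although the marked Thy1.1 pair was itself spread. The log2 fold change of marked GFP over marked Thy1.1 cells was 2.48 ± 0.40 (SE, edgeR adjusted p = 0.00722), and 3.25 without marked Thy1.1 library 1. Top2a, the topoisomerase that untangles sister chromatids, was at 19.5 and 16.7 CPM, 18.25 and 16.7 CPM, 55.8 and 34.3 CPM, and 56.9 and 81.7 CPM in the same order of populations. Its GFP libraries did not overlap the Thy1.1 libraries, and the 2 GFP populations almost met. Top2a rose by 1.99 ± 0.28 (edgeR adjusted p = 0.00445).

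Of the 10 cyclins, CDK1 and their regulators, 6 rose and 4 did not pass. Ccna2 encodes cyclin A2, which acts from S phase into early mitosis, and its exons overlap 510 bases of Exosc9. It was at 12.8 and 10.1 CPM in unmarked Thy1.1, 11.9 and 9.37 CPM in marked Thy1.1, 30.35 and 26.1 CPM in unmarked GFP and 69.8 and 59.3 CPM in marked GFP cells, so that neither GFP population overlapped any other. It rose by 2.60 ± 0.22 (edgeR adjusted p = 0.000886). Ccnb2, one of the B cyclins that carry CDK1 into mitosis, was at 2.16 and 1.54 CPM, 0.4295 and 1.19 CPM, 33.4 and 12.1 CPM, and 112 and 42.6 CPM. It rose by 6.59 ± 0.80 (edgeR adjusted p = 0.00278) and had the widest range of the 3, with the third marked GFP library well above the fourth. Its log2 fold change was 5.97 and 7.44 without marked Thy1.1 library 1 or 2, and 5.67 without marked GFP library 3. Cdc25b, a phosphatase that activates CDK1, started high, and ranged from 56.3 to 69.3 CPM over the 4 Thy1.1 libraries. It reached 108.5 and 79.0 CPM in unmarked GFP and 133 and 106 CPM in marked GFP cells, which overlapped. Cdc25b rose by 0.79 ± 0.19 (edgeR adjusted p = 0.0294), a call lost without unmarked Thy1.1 library 1 or 2, marked Thy1.1 library 1 or 2, or marked GFP library 3.

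Cdk1, the kinase itself, rose by 3.00 ± 0.43 and Ccnb1, whose transcript has several near-identical pseudogene copies, by 4.03 ± 0.60. Both calls were lost without marked Thy1.1 library 1 or 2, and Ccnb1 was at 3.15 without marked GFP library 3. Pbk, a mitotic kinase, had 0 counts in marked Thy1.1 cells against 874 in marked GFP cells, at least 331-fold higher by a limit of 3 counts over the group. Unmarked Thy1.1 cells held 0.0635 and 0.514 CPM of Pbk, and both GFP populations held 7.15 to 13.3 CPM. The 4 that did not pass were Ccnf at 2.57 ± 1.02, Cdc25c at 2.55 ± 0.77, Melk at 1.29 ± 0.72, and Foxm1, the gene of a transcription factor of mitotic genes, at 0.98 ± 0.47 (edgeR adjusted p = 0.208). Melk stood at 25.7 CPM in marked GFP library 3 and 4.24 CPM in library 4, and its log2 difference was -0.58 without library 3 and 2.06, past the threshold, without library 4. Ccnf was at 1.77 and 4.10 without marked Thy1.1 library 1 or 2 and at 1.85 without marked GFP library 3, and both Ccnf and Cdc25c passed by DESeq2. Foxm1 lay between 3.73 and 10.3 CPM in all 8 libraries, and its unmarked Thy1.1 pair (3.98 and 8.90 CPM) spanned the unmarked GFP pair (7.25 and 7.35 CPM).

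Both mitotic kinases rose. Plk1, which acts at the spindle poles and kinetochores, was at 3.22 to 5.36 CPM in Thy1.1 libraries, 9.67 and 4.73 CPM in unmarked GFP and 18.95 and 21.2 CPM in marked GFP cells. Aurka, which builds the spindle poles, was at 2.29 to 4.11 CPM, 6.97 and 4.75 CPM, and 17.5 and 13.6 CPM. For both, marked GFP cells stood clear of all other libraries. Plk1 rose by 2.43 ± 0.42 and Aurka by 2.66 ± 0.40 (edgeR adjusted p = 0.00937 and 0.00556), and both calls were lost without marked Thy1.1 library 1 or 2.

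All 4 members of the chromosomal passenger complex, which corrects faulty chromosome attachments and later guides the cell's division in 2, rose. Birc5 encodes survivin, the subunit that brings the complex to centromeres. It was at 3.45 and 2.895 CPM in unmarked Thy1.1, 1.49 and 0.823 CPM in marked Thy1.1, 22.7 and 11.2 CPM in unmarked GFP and 82.8 and 51.0 CPM in marked GFP cells. None of these 4 pairs overlapped, and Birc5 rose by 5.84 ± 0.51 (edgeR adjusted p = 0.000886). Cdca8, the borealin gene, was at 3.70 to 8.31 CPM in Thy1.1 libraries, 15.3 and 11.2 CPM in unmarked GFP and 48.4 and 29.98 CPM in marked GFP cells, and rose by 3.29 ± 0.45 (edgeR adjusted p = 0.00392). Incenp, the scaffold, was present everywhere, at 31.7 to 49.5 CPM in Thy1.1 libraries, 51.4 and 43.8 CPM in unmarked GFP and 97.2 and 72.5 CPM in marked GFP cells. Its unmarked GFP pair overlapped unmarked Thy1.1 cells. Incenp rose by 1.23 ± 0.23 (edgeR adjusted p = 0.0116) and Aurkb, the kinase of the complex, by 3.69 ± 0.53 (edgeR adjusted p = 0.00484). The call of Incenp was lost without marked Thy1.1 library 1 or 2 or marked GFP library 3, and that of Aurkb without marked Thy1.1 library 2.

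The 5 spindle checkpoint genes split, with 3 higher and 2 not passing. Bub3, which also has roles outside mitosis, was at 155 to 168 CPM in 6 libraries, and at 214 and 172 CPM in marked GFP cells. Its log2 difference was 0.24 ± 0.12 (edgeR adjusted p = 0.225), the smallest in size of the 55. Mad2l1, the gene of the MAD2 protein that blocks CDC20, was at 10.25 to 16.3 CPM in Thy1.1 libraries, 20.5 and 17.9 CPM in unmarked GFP and 55.8 and 41.5 CPM in marked GFP cells, with no overlap between them. Mad2l1 rose by 1.88 ± 0.27 (edgeR adjusted p = 0.00513). Bub1b, the BubR1 gene, was at 1.24 to 4.30 CPM, 7.81 and 8.43 CPM, and 30.05 and 11.7 CPM, and rose by 2.71 ± 0.69 (edgeR adjusted p = 0.0367). Its marked GFP pair was widely spread, and the value was 1.82 and no longer called without marked GFP library 3. Leaving out marked Thy1.1 library 1 or 2, or unmarked GFP library 3 or 4, also ended the call. Ttk, the kinase that recruits the checkpoint, rose by 3.69 ± 0.72, a call lost without marked Thy1.1 library 1 or 2. Bub1 was at 4.04 ± 1.83 (edgeR adjusted p = 0.184), with 0.0229 and 0.614 CPM in marked Thy1.1 and 2.41 and 8.22 CPM in marked GFP cells. The value for Bub1 was 7.64 and 3.06 without marked Thy1.1 library 1 or 2 and 2.89 without marked GFP library 4, and it passed by DESeq2.

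Among the 4 genes of anaphase onset, 2 rose and Pttg1 fell. Cdc20 was at 3.98 and 7.71 CPM in unmarked Thy1.1, 10.5 and 6.31 CPM in marked Thy1.1, 25.7 and 13.2 CPM in unmarked GFP and 62.8 and 40.2 CPM in marked GFP cells. Ube2c, the enzyme that starts ubiquitin chains for the APC/C, was at 0.0686 to 1.503 CPM in Thy1.1 libraries, 2.16 and 3.04 CPM in unmarked GFP and 19.7 and 7.63 CPM in marked GFP cells. In both genes the GFP populations overlapped neither each other nor the Thy1.1 libraries. Cdc20 rose by 2.61 ± 0.47 and Ube2c, whose exons overlap Tnnc2, by 5.53 ± 1.11 (edgeR adjusted p = 0.0113 and 0.0158). The call of Cdc20 was lost without marked Thy1.1 library 1 or 2. Ube2c was at 7.52 without marked Thy1.1 library 1, and at 4.68 and 4.65, no longer called, without marked Thy1.1 library 2 or marked GFP library 3. Pttg1 encodes securin, which holds the protease separase in check until anaphase. It was at 55.03 and 63.4 CPM in unmarked Thy1.1, 66.0 and 75.4 CPM in marked Thy1.1, 43.8 and 49.96 CPM in unmarked GFP and 47.4 and 44.3 CPM in marked GFP cells. All 4 GFP libraries were below all 4 Thy1.1 libraries. Pttg1 fell by 0.62 ± 0.15 on the log2 scale (edgeR adjusted p = 0.028), a call lost without marked Thy1.1 library 1 or 2 or marked GFP library 3 or 4. Espl1, the separase gene, was at 4.14 ± 1.32 (edgeR adjusted p = 0.0749), from 0.0205 and 0.663 CPM in marked Thy1.1 to 4.58 and 7.49 CPM in marked GFP cells. Espl1 was at 3.12 without marked Thy1.1 library 1 and at 7.97, past the threshold, without library 2, and it passed by DESeq2.

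All 7 centromere and kinetochore genes rose. Cenpa encodes the histone that marks the centromere. It was at 46.6 to 54.45 CPM in Thy1.1 libraries, 72.2 and 54.6 CPM in unmarked GFP and 154 and 93.8 CPM in marked GFP cells, with marked GFP cells above all others, and rose by 1.29 ± 0.24 (edgeR adjusted p = 0.0122). Ndc80, part of the complex that grips the microtubule, was at 6.498 to 10.1 CPM in Thy1.1 libraries, and at 15.8 and 15.9 CPM in unmarked GFP and 17.3 and 17.2 CPM in marked GFP cells. The 2 GFP pairs were close together. Its rise of 0.94 ± 0.26 (edgeR adjusted p = 0.0467) was lost without any 1 of the 8 libraries, with RLE size factors, with library totals, with no filter on low counts and with only the populations compared in the fit. Cenpe, a kinetochore motor, was at 2.22 to 2.86 CPM in Thy1.1 libraries, 6.55 and 6.23 CPM in unmarked GFP and 31.2 and 8.595 CPM in marked GFP cells. Cenpe rose by 2.82 ± 0.58 (edgeR adjusted p = 0.0173), and was at 3.45 without marked GFP library 4 and at 1.56, no longer called, without marked GFP library 3. Leaving out marked Thy1.1 library 1 or 2 also ended the calls of Cenpe and Cenpa. Nuf2, a partner of Ndc80 in that complex, rose by 4.96 ± 0.47, with Spc24 at 3.57 ± 0.67, Spc25 at 2.59 ± 0.43 and Cenpf at 4.35 ± 0.90. Cenpf was at 5.63 without marked Thy1.1 library 2 and at 3.61, no longer called, without marked Thy1.1 library 1, and its call was also lost without marked GFP library 3. Spc24 was not called without marked Thy1.1 library 1 or 2, nor was Spc25 without marked Thy1.1 library 1.

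**Figure D3:**
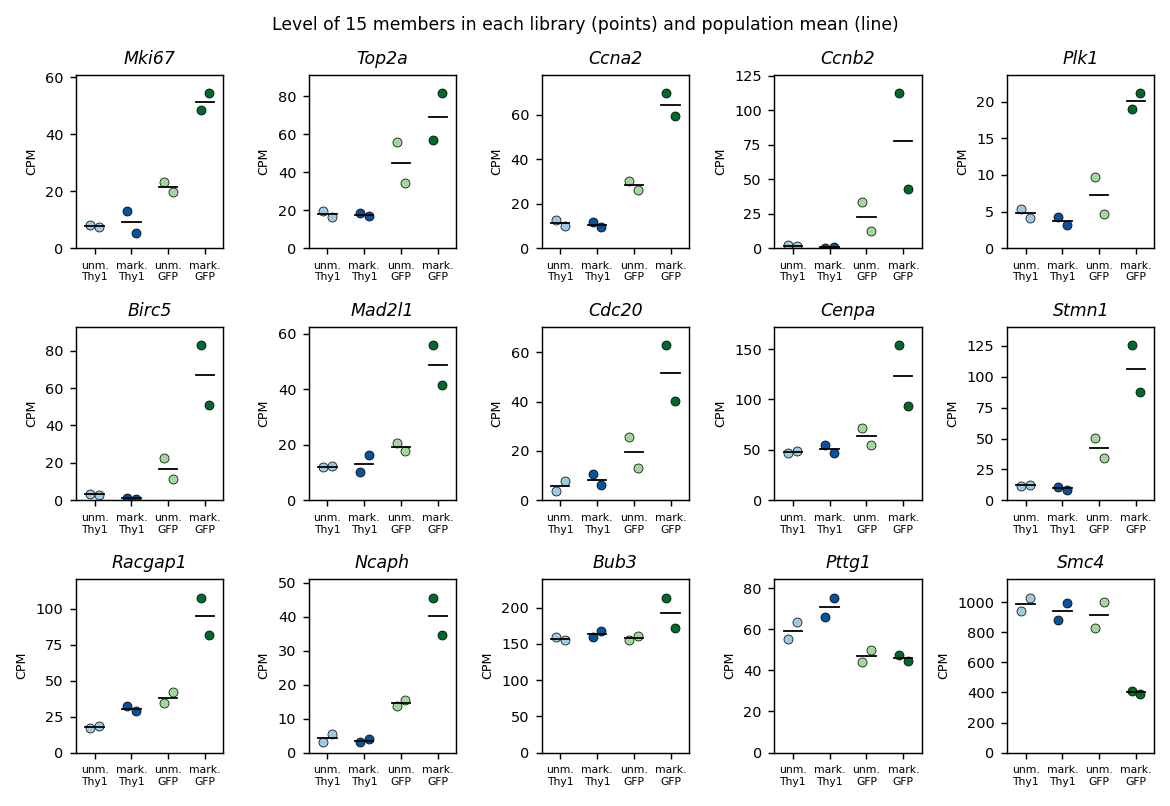
Level (CPM, linear axis from 0) of 15 members in each library (points) with the population mean (line), for unmarked and marked Thy1.1 and unmarked and marked GFP cells, each with 2 libraries. Mki67, Ccna2, Birc5 and Stmn1 climb from Thy1.1 to marked GFP cells, Bub3 is nearly level, and Smc4 drops to 409.9 and 390.5 CPM in marked GFP cells.

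Of the 7 kinesin motors, which slide or shorten microtubules, 6 rose. Kif20a, needed for cytokinesis, was at 25.1 to 35.45 CPM in Thy1.1 libraries, 42.0 and 35.05 CPM in unmarked GFP and 55.5 and 41.55 CPM in marked GFP cells. Each GFP pair overlapped the next population below it. The exons share 1271 bases with those of Cdc23, so the level is uncertain. It rose by 0.87 ± 0.20 (edgeR adjusted p = 0.0244), a call lost without marked GFP library 3 or any 1 of the 4 Thy1.1 libraries, and with only the populations compared in the fit. Kif11, the motor that pushes the spindle poles apart, was at 12.98 and 3.92 CPM in unmarked Thy1.1, 3.52 and 4.30 CPM in marked Thy1.1, 21.0 and 15.5 CPM in unmarked GFP and 26.7 and 29.2 CPM in marked GFP cells. Kif15, a second motor of the same task, was at 3.76 to 7.37 CPM, 13.7 and 20.2 CPM, and 17.7 and 21.1 CPM. Kif11 rose by 2.84 ± 0.52 and Kif15 by 2.06 ± 0.35 (edgeR adjusted p = 0.0117 and 0.00912). For Kif15 the 2 GFP populations overlapped. Both calls were lost without marked Thy1.1 library 1, and that of Kif11 also without library 2.

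Kif23 encodes a motor of the central spindle. It was at 5.33 and 8.92 CPM in unmarked Thy1.1, 1.19 and 0.891 CPM in marked Thy1.1, 6.81 and 5.46 CPM in unmarked GFP and 13.6 and 11.3 CPM in marked GFP cells. The unmarked Thy1.1 pair thus spanned the unmarked GFP pair, while the marked Thy1.1 pair was the lowest of all. Kif23 rose by 3.58 ± 0.44 between the marked populations (edgeR adjusted p = 0.00294). Kif4 rose by 2.89 ± 0.74 and Kif18b by 3.62 ± 0.95. Kif4 was at 1.90 and not called without marked GFP library 3, and Kif18b at 4.87 and 2.90 without marked Thy1.1 library 1 or 2. Kif4 was also not called without marked Thy1.1 library 1 or 2, nor Kif18b without any 1 of those libraries or of the 4 GFP libraries. Kif2c, the kinesin that takes microtubules apart at kinetochores, was at 4.06 ± 1.36 (edgeR adjusted p = 0.0863), with 12.2 and 2.01 CPM in the marked GFP libraries. The value for Kif2c was 7.14 and 3.10 without marked Thy1.1 library 1 or 2, 2.19 without marked GFP library 3 and 4.82, past the threshold, without marked GFP library 4, and it passed by DESeq2.

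All 5 spindle and microtubule regulators rose. Stmn1 encodes stathmin, which destabilizes microtubules. It was at 11.9 and 12.4 CPM in unmarked Thy1.1, 11.2 and 8.43 CPM in marked Thy1.1, 50.8 and 34.45 CPM in unmarked GFP and 125.5 and 87.9 CPM in marked GFP cells, with neither GFP pair overlapping any other. Its rise of 3.44 ± 0.28 had the smallest adjusted p of the 55 (edgeR adjusted p = 0.000842). Tacc3, which stabilizes spindle fibres, was at 15.1 to 21.4 CPM in Thy1.1 libraries, 31.0 and 34.3 CPM in unmarked GFP and 53.0 and 38.25 CPM in marked GFP cells. It rose by 1.13 ± 0.23 (edgeR adjusted p = 0.0169), a call lost without marked Thy1.1 library 1 or 2 or marked GFP library 3. Tpx2, the activator of the Aurka kinase, was at 0.5485 to 2.80 CPM, 12.9 and 10.3 CPM, and 34.6 and 32.0 CPM. Tpx2 rose by 4.68 ± 0.61 (edgeR adjusted p = 0.0036), and by 5.86 and 3.99 without marked Thy1.1 library 1 or 2. Nusap1, whose exons overlap Oip5, rose by 3.83 ± 0.43. Hmmr had 2 counts in marked Thy1.1 and 1208 in marked GFP cells, a ratio of 686 (95% counting interval 190 to 5670), with 1.29 and 0 CPM in unmarked Thy1.1 cells. Its call was lost without marked Thy1.1 library 1 or 2.

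Of the 4 cytokinesis genes, 2 rose. Racgap1, the partner of Kif23 in the central spindle, was at 16.8 and 18.45 CPM in unmarked Thy1.1, 32.2 and 28.9 CPM in marked Thy1.1, 34.6 and 41.9 CPM in unmarked GFP and 108 and 82.0 CPM in marked GFP cells. Marked Thy1.1 cells were above unmarked Thy1.1 cells here, and marked GFP cells above all others. Racgap1 rose by 1.64 ± 0.19 (edgeR adjusted p = 0.00244). Prc1, which bundles the midzone microtubules, was at 5.88 to 7.18 CPM, 26.45 and 20.4 CPM, and 24.9 and 37.0 CPM, so that the 2 GFP populations overlapped. Prc1 rose by 2.16 ± 0.28 (edgeR adjusted p = 0.00334). Ect2, which switches on the contractile ring, was at 4.60 to 6.26 CPM in Thy1.1 libraries, 8.63 and 14.3 CPM in unmarked GFP and 19.9 and 10.6 CPM in marked GFP cells. Its log2 difference was 1.49 ± 0.42 (edgeR adjusted p = 0.0508), which passed without marked GFP library 4, by DESeq2 and with the stricter filter. Anln, the anillin gene, was at 1.72 ± 0.98 (edgeR adjusted p = 0.291), and at 3.19 and 0.95 without marked Thy1.1 library 1 or 2 and 1.11 without marked GFP library 3.

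Of the 5 condensin genes, which compact chromosomes for mitosis, 4 rose and Smc4 fell. Smc2 and Smc4 form the core of both condensin complexes, and the 3 others belong to condensin I. Smc4 was by far the most abundant member, at 945 and 1032 CPM in unmarked Thy1.1, 885 and 998 CPM in marked Thy1.1, 827 and 999 CPM in unmarked GFP and 409.9 and 390.5 CPM in marked GFP cells. The first 3 populations overlapped, and marked GFP cells stood alone below them. Smc4 fell by 1.23 ± 0.11 on the log2 scale (edgeR adjusted p = 0.000993). Its partner Smc2 was at 26.55 to 34.9 CPM in Thy1.1 libraries, 39.3 and 39.6 CPM in unmarked GFP and 64.9 and 52.3 CPM in marked GFP cells, and rose by 1.05 ± 0.16 (edgeR adjusted p = 0.0066). Ncapd2 was at 26.9 to 35.75 CPM, 28.3 and 47.96 CPM, and 79.2 and 63.8 CPM, with only the marked GFP pair clear of the rest, and rose by 1.27 ± 0.26 (edgeR adjusted p = 0.0164). Both lost their call without marked Thy1.1 library 1 or 2, and Ncapd2 also without marked GFP library 3. Ncapg and Ncaph rose by 2.52 ± 0.35 and 3.53 ± 0.36. No exon of another annotated gene overlaps those of Smc4, and no near-identical copy of its transcript was found in GENCODE, at 95% identity over at least 200 bases.

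**Figure D4:**
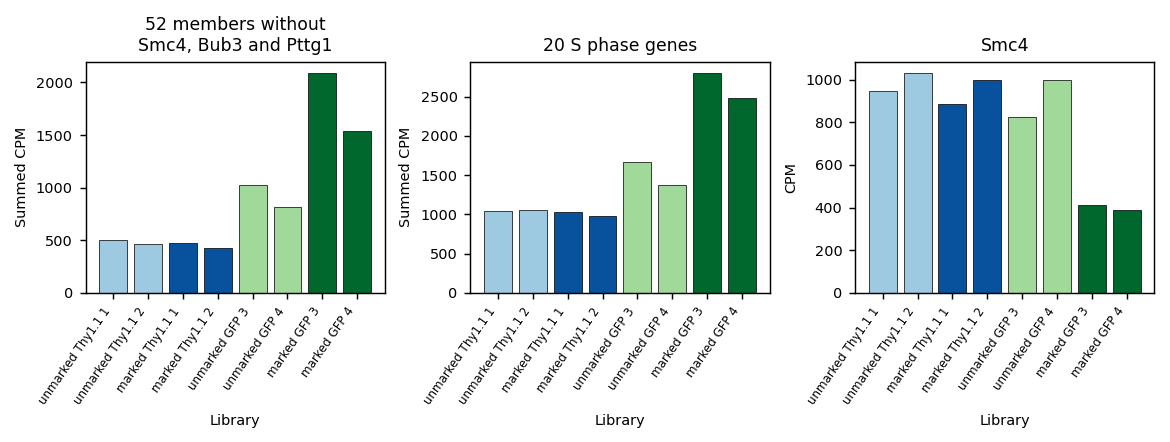
Summed CPM of the 52 members other than Smc4, Bub3 and Pttg1 (left) and of 20 S phase genes (middle), and CPM of Smc4 alone (right), in each of the 8 libraries, with bars from 0. The first 2 panels rise from the Thy1.1 to the marked GFP libraries, where Smc4 is lowest.

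Per kilobase of exon, which allows genes to be compared, Smc4 led in both marked GFP libraries despite its fall, at a mean of 76.8 CPM per kilobase. Stmn1 was at 65.3 and 45.7 CPM per kilobase in marked GFP libraries 3 and 4, and Cdc25b at 35.8 and 28.3. Ccnb2 was above Stmn1 in library 3, at 73.35 CPM per kilobase, and below Cdc25b in library 4, at 27.8, so its place rests on library 3. Bub3 (30.6 and 24.6 CPM per kilobase) and Cdc20 (33.6 and 21.5) overlapped. The lengths are those of the GENCODE gene models, which may differ from those used for the counts. Exons of 13 members overlap those of another gene of the table, and the library kit does not mark strand. Beyond those named, these are Cdca8, Kif4, Ncapg, Prc1, Cdc20, Cdc25b, Tacc3, Ccnf and Ncapd2, and their levels are uncertain to that extent. Transcripts of Ccnb1, Pbk, Stmn1, Racgap1, Mad2l1, Cdc20, Mki67 and Ndc80 have near-identical stretches in other gene models.

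The comparison of marked with unmarked GFP cells asked how candidate peripherally induced cells differed from other cells with the same reporter. Here 13 members rose, 1 fell and 41 did not pass (edgeR, adjusted p under 0.05), where 6.24% of all genes tested rose and 6.4% fell, 12.6% in all. The median log2 fold change was 1.02, against 0.03 over all genes tested, and the marked pair lay above the unmarked pair for 41 of 55 members and for 28.9% of genes tested. The comparison shares the marked GFP libraries with the one before. Racgap1 rose by 1.31 ± 0.19 (edgeR adjusted p = 0.00596), Ccna2 by 1.19 ± 0.21, Stmn1 by 1.32 ± 0.26, Mad2l1 by 1.34 ± 0.27, Nuf2 by 2.01 ± 0.41 and Birc5 by 1.98 ± 0.42. The others were Cdk1 (1.71), Ccnb1 (2.39), Aurka (1.41), Cdca8 (1.56), Incenp (0.83), Cenpa (0.96) and Ncaph (1.46) on the log2 scale. Mki67 was at 1.27 ± 0.38 (edgeR adjusted p = 0.0679), Plk1 at 1.48 ± 0.41 (edgeR adjusted p = 0.0512), Pttg1 at -0.03 ± 0.15 and Foxm1 at 0.48 ± 0.47. Smc4 fell by 1.19 ± 0.11 (edgeR adjusted p = 0.00155).

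The number of members called here hinged on single libraries. It was 3 without unmarked GFP library 4, 2 without marked GFP library 3, 9 without unmarked GFP library 3, 8 without marked Thy1.1 library 1 or 2, and 2 when only the GFP libraries were fitted. By DESeq2 it was 27. With only the GFP libraries fitted, 1 member rose and 1 fell, and 300 of 13130 genes tested were called, a similar share. By DESeq2, 3012 of 18654 genes were called. Each fit without 1 library leaves a single library in 1 population, so its count of members is not weighed against all genes here. Racgap1 and Smc4 kept their calls with each of the 8 libraries left out. Ccna2, Birc5, Mad2l1 and Stmn1 lost theirs only without unmarked GFP library 4 or marked GFP library 3 among the libraries left out, and Nuf2 also without unmarked GFP library 3. Cdca8, Cdk1 and Ncaph lost theirs without either unmarked GFP library, marked GFP library 3 or either marked Thy1.1 library, and Cdk1 also without marked GFP library 4. Aurka lost its call without any 1 of the 8 libraries, with RLE factors, library totals or no filter, Incenp and Cenpa without any but marked GFP library 4, and Ccnb1 without any 1 of the 4 Thy1.1 libraries, unmarked GFP library 4 or marked GFP library 3. Incenp also lost its call with RLE factors or library totals. Without unmarked GFP library 3, Ccnb1 was at 2.99 and Birc5 at 2.58, and without marked GFP library 3 Ccnb1 was at 1.52. Within a population, marked GFP library 3 exceeded library 4 for 43 of 55 members and for 51.5% of genes tested, and unmarked GFP library 3 exceeded library 4 for 38 members and for 50.2%.

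**Figure D5:**
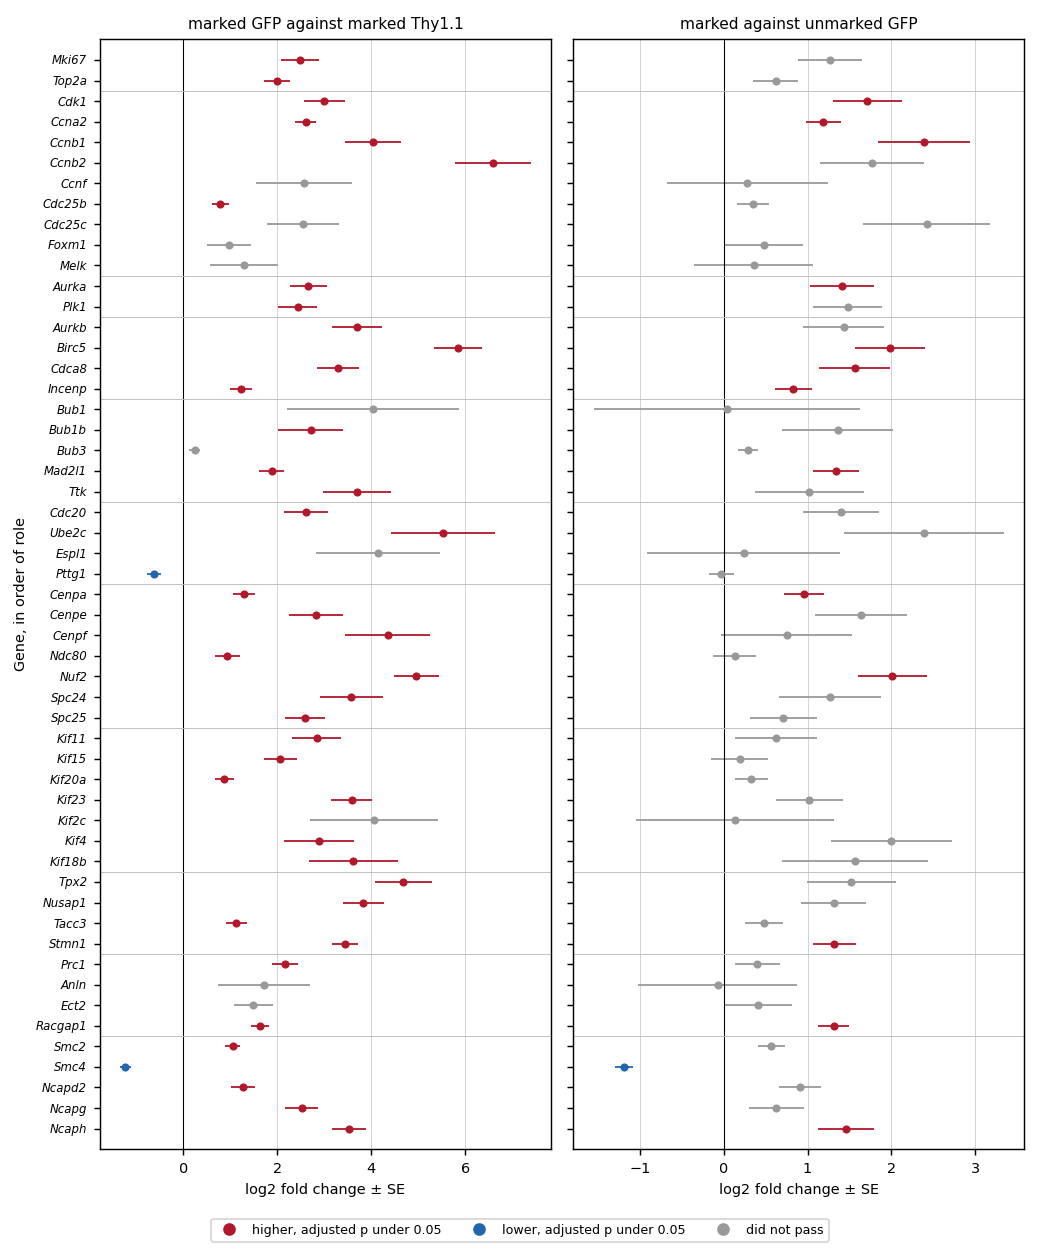
Log2 fold change ± SE of 53 members (points, in order of role) for marked GFP against marked Thy1.1 cells (left) and for marked against unmarked GFP cells (right), red and blue where the adjusted p is under 0.05 and grey otherwise. Pbk and Hmmr, with 0 and 2 counts in marked Thy1.1 cells, are left out, and on the left every point drawn lies right of 0 except those of Smc4 and Pttg1.

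Between unmarked GFP and unmarked Thy1.1 cells, edgeR called 0 of 55 members, where 0.0643% of all genes tested were called higher and 0.1% lower. At an unadjusted p under 0.05, 33 members and 11.9% of all genes tested differed, and DESeq2 called 23 members, all higher. The unmarked GFP pair lay above the unmarked Thy1.1 pair for 42 members, against 21.4% of genes tested, and the median log2 difference was 1.29. Prc1 was at 1.91 ± 0.28 and Stmn1 at 1.81 ± 0.26, the members nearest to the threshold (smallest edgeR adjusted p = 0.0525). With no filter on low counts, or with the stricter filter, edgeR called 5 members, all higher. For DESeq2 and for these filters the share of all genes called was not computed in this comparison, so these counts of members cannot be weighed against it. Unmarked GFP library 3, in which the myeloid and dendritic genes were highest, was the higher of its pair for 38 of 55 members, and the part of those cells was not tested.

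The marked and unmarked Thy1.1 pairs overlapped for 36 of 55 members. The marked pair was above for 6 and below for 13, against 23.2% and 21.8% of genes tested. EdgeR called 0 members and 0% of all genes tested. At an unadjusted p under 0.05, 7 members and 7.6% of all genes differed. DESeq2 called 3 members, and its share over all genes was not computed here. The median log2 difference was -0.24. Kif23 was at -2.77 ± 0.43 (edgeR adjusted p = 0.283), and Racgap1 lay 28.9 to 32.2 CPM against 16.8 to 18.45 CPM. For Pbk and Hmmr the counts were 0 and 2 in marked cells and 25 and 61 in unmarked cells.

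The interaction asked whether the label changed a gene differently in the 2 reporters. It was called for Kif23, higher, and Smc4, lower, where 0.0929% of all genes tested were called higher and 0.35% lower. For Kif23 it was 3.80 ± 0.59 on the log2 scale (edgeR adjusted p = 0.0478), a call lost without any 1 of the 8 libraries and with RLE size factors. For Smc4 it was -1.12 ± 0.15 (edgeR adjusted p = 0.0324), a call lost without any 1 of the 4 Thy1.1 libraries, unmarked GFP library 4 or marked GFP library 4. The remaining 53 members were not called, 51 of all 55 had a positive sign, and the median was 1.13, against 0.03 over all genes tested. The share of positive signs over all genes was not computed.

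Other genes of division were read from fixed lists. Of 65 further mitosis genes, 22 rose and 0 fell between marked GFP and marked Thy1.1 cells, where 8.01% of all genes tested rose and 6.82% fell, with a median of 1.68 against -0.01 over all genes. The CDK1 subunit gene Cks1b rose by 2.44 ± 0.25, Cdca3 by 4.23 ± 0.55, Cdca2 by 3.36 ± 0.45 and the kinesin gene Kif22 by 2.34 ± 0.37. Of 20 S phase genes, 19 rose, among them Mcm5 by 1.74 ± 0.15, Mcm6 by 1.31 ± 0.13, Mcm2 by 1.27 ± 0.11 and Rrm2, a subunit of the enzyme that makes deoxynucleotides, by 3.66 ± 0.37. Of the 15 subunits and activators of the APC/C, 1 rose (Anapc15, 0.99 ± 0.23) and 0 fell, a share near that of all genes, with a median of 0.05, and Fzr1, Anapc13 and Anapc16 were at 0.34 ± 0.13, 0.60 ± 0.22 and 0.28 ± 0.14. Of 9 cohesin genes, which hold sister chromatids together, 0 rose and 2 fell, Nipbl with -0.61 ± 0.16 and Stag2 with -0.65 ± 0.17, with Pds5b at -0.49 ± 0.15 and Smc1a at 0.28 ± 0.10. Of 10 tested genes of MuvB and its partners, 3 rose, the B-Myb gene Mybl2 by 2.81 ± 0.44, E2f4 by 0.64 ± 0.11 and Tfdp1 by 0.71 ± 0.17, and Rbbp4 was at 0.19 ± 0.08, with a list median of 0.13.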

How the data were processed

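Libraries came from polyA RNA amplified by SMART-Seq v4 and were read as paired ends, per the labels' protocols. The deposited table holds whole-number counts per gene that were not normalized, as its values show. The submitters' processing notes name DESeq without a version; for the aligner, counter, annotation and build, nothing is stated (not given in the sources used here). Of 24116 rows, 8 had no gene name (0.0215% to 0.0264% of a library's counts) and were left out. The GFP columns are numbered 3 and 4 where the titles say 1 and 2, so they were matched to their population only. Tests used R 4.3.3 and edgeR 4.0.16: expression filter (minimum count 10), TMM factors from 0.978 to 1.02, 1 robust quasi-likelihood model over 8 libraries with a mean per population (4 residual degrees of freedom, common biological coefficient of variation 0.399), and Benjamini-Hochberg adjustment over 13989 genes. P-values measure the spread between libraries, which may be technical. Standard errors came from the F statistic. Exon overlaps, lengths and near-identical copies (blastn) were taken from GENCODE models of GRCm38. Counting intervals and limits cover counting error only. The pipeline was tested on simulated data.

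Values over all libraries are given for the 3 most abundant members of each of 11 roles. They are given by library or as a range over several libraries, mostly the 4 Thy1.1 libraries. Single members outside that rule were chosen after their values were seen, as were the printed promoters. The members and all lists were chosen with earlier results of these data known. Alternatives were RLE factors, library totals, no filter, a stricter filter (1 CPM in 4 libraries), DESeq2 1.42.0, only the populations compared, a replicate block, and each library left out.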

Additional observations from a re-analysis of the deposited data

Results flagged for a closer look

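For 2 members the effect of the tdTomato label differed between the reporters by the interaction test (edgeR quasi-likelihood, adjusted over all 13989 genes). Kif23 had an interaction of 3.80 ± 0.59 (edgeR adjusted p = 0.0478): it was at -2.77 ± 0.43 for marked against unmarked Thy1.1 cells and at 1.02 ± 0.40 for marked against unmarked GFP cells, with both marked libraries below both unmarked ones in the first and above them in the second. The call was lost without any 1 of the 8 libraries and with RLE factors. Smc4 had an interaction of -1.12 ± 0.15 (edgeR adjusted p = 0.0324), from -0.07 ± 0.11 in Thy1.1 cells and -1.19 ± 0.11 in GFP cells. That call was lost without any 1 of the 4 Thy1.1 libraries, unmarked GFP library 4 or marked GFP library 4.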

How the results depend on the processing

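The number of members called for marked GFP against marked Thy1.1 cells was 45, and between 43 and 51 under the alternatives other than leaving out libraries; with 1 library left out it ran from 20 to 45, and 18 of the 45 calls held in every fit run. For unmarked GFP against unmarked Thy1.1 cells the count of 0 became 23 by DESeq2, 5 without a filter, 5 under the stricter one, 4 with the replicate block, and 0 to 2 with 1 library left out. For marked against unmarked GFP cells the count of 14 became 27 by DESeq2 and 2 with only the populations compared, and 2 to 15 with 1 library left out. For marked against unmarked Thy1.1 cells it was 0 and became 3 by DESeq2, and 0 with each library left out. For the interaction the count of 2 became 15 by DESeq2, 1 with RLE factors, 4 without a filter, 4 under the stricter one, and 0 to 2 with 1 library left out. Melk changed sign for marked GFP against marked Thy1.1 cells, to -0.58 without marked GFP library 3, and ranged up to 2.06 without library 4. Fits of single members were tallied for all members in this comparison. For marked against unmarked GFP cells and for the interaction, only members called in the main fit were tallied. No gain could be counted there, so losses and gains in the tally cannot be weighed against each other. Among the alternative fits of single members, 877 kept direction and side of the threshold, 173 lost the call, 12 gained it and 1, that of Melk, changed sign. Over all genes, 2074 were called for marked GFP against marked Thy1.1 cells, 3211 by DESeq2 and 481 and 524 without marked Thy1.1 library 1 or 2; for marked against unmarked GFP cells the counts were 1768, 3012 by DESeq2, 300 with only those populations and 458 without unmarked GFP library 4. The cause of these shifts was not tested, and counts over all genes under the alternatives were not made for the remaining comparisons. Library totals moved the median of all genes by at most 0.06 on the log2 scale. The library numbers were not taken as pairs: deviations of same-numbered libraries correlated across genes at 0.105 in Thy1.1 and 0.119 in GFP cells, over 2 pairs each. With the replicate block, the counts were 44, 4, 15, 0 and 2 in the order above, and Kif23 lost its call in the interaction, Ndc80 and Kif18b theirs between the marked populations, and Aurka its call between the GFP populations, while Kif2c gained one between the marked populations. Between the marked populations, Bub1, Espl1 and Kif2c, each with a mean under 4 CPM, had standard errors over 1 on the log2 scale. So did Ccnf (1.02), and Ube2c (1.11), Pbk (1.53) and Hmmr (1.88), which were called higher.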

Other observations

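The sum of the 52 members other than Smc4, Bub3 and Pttg1, divided by the sum of 20 S phase genes, was 0.437 to 0.477 in the 4 Thy1.1 libraries, 0.615 and 0.598 in unmarked GFP and 0.746 and 0.622 in marked GFP cells. Both sums share each library's scaling, and the ratio was not tested. The S phase genes were called higher in 11 of 20 cases in marked against unmarked GFP cells, with a median log2 fold change of 0.94, where 6.24% of all genes tested were called higher and the median was 0.03.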
